A study of Mus musculus with 8 samples.

Results

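The nuclear receptors are transcription factors that bind DNA through a pair of zinc fingers and, in most members, are switched by a small lipid-soluble ligand. Their genes were looked up by symbol in a deposited table of 21692 mouse genes measured by RNA sequencing of cultured limb buds; the selection rule names the genes and holds no threshold on a measured value. Of 47 listed members, 41 had a row in the table and 37 had enough reads to be tested. The 6 members without a row, Nr1h4, Hnf4a, Hnf4g, Nr2e1, Nr0b1 and Nr0b2, are not analysed here. By the criterion used, at least 1 FPKM (deposited read counts scaled for gene length and for the total of the library) in all 4 vehicle libraries, 25 members were expressed in the limb bud.

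The tissue was the forelimb bud of CD1 mouse embryos at gestation day 13, kept in culture for 24 hours. In 1 group of 4 libraries (vehicle 1 to 4) the buds were cultured with the solvent DMSO. In the other 4 (OPE 1 to 4) they were cultured with a mixture of organophosphate esters, which are flame retardants and plasticisers, modelled on Canadian house dust and diluted 1 in 300000. Both groups went through the same culture, no uncultured bud was included, and the labels do not say how many embryos or litters went into a library, so p-values measure only the spread between these libraries. All 15 tested markers of cartilage and limb mesenchyme were expressed, and their summed level ran from 9601 to 11178 in vehicle and from 9788 to 10699 in OPE libraries (CPM, counts scaled to library size).

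The receptors act in a few ways. Retinoic acid, thyroid hormone, vitamin D, oxysterol, fatty acid and xenobiotic receptors sit on DNA as heterodimers with a retinoid X receptor, exchange corepressors for coactivators when ligand binds, and so turn target genes on. Steroid receptors are held by heat shock chaperones until hormone binds and then act as dimers, while orphan members such as the NR4A and COUP proteins are controlled mainly through their amount or modification. In the limb, retinoic acid signalling shapes the early proximal bud and interdigital tissue, and repression by unliganded retinoic acid receptors is known to favour cartilage formation. Organophosphate esters have been proposed to disturb several of these receptors, and the comparison asks whether the messenger RNA of the receptors themselves, or of their known targets, differed after exposure.

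The retinoic acid receptors led the family in vehicle buds, followed by the retinoid X receptors. The level of Rarg, which encodes retinoic acid receptor gamma and is known from condensing limb cartilage, was 122, 130.1, 118 and 120.3 FPKM in vehicle 1 to 4 (123 ± 5.29, mean ± SD, n = 4), the highest of the 41 members. Of the summed FPKM of all members, 502 ± 9.14 in vehicle, the 3 retinoic acid receptors held 32.1% ± 0.902 and the 3 retinoid X receptors 19.6% ± 0.933. These 6 genes therefore held 51.6% of the family's level per length, and with the thyroid hormone receptors and the oxysterol group the share came to 75.1%. Such levels rest on the deposited gene length, which falls short of the exon bases of the mouse annotation (GENCODE release M21) to unlike degrees. It was 2452 against 4614 bases for Thra and 4220 against 8625 for Nr2f2, but 5916 against 6474 for Nr3c2. Ranks, shares, ratios between genes and the 1 FPKM criterion would shift with other lengths. The levels spanned a wide range among the 25 expressed members, from 1.204 FPKM for Esrrb to 123 for Rarg, with 15 members at 5 FPKM or more, 11 at 10 or more and 5 at 40 or more.

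**Figure D1:**
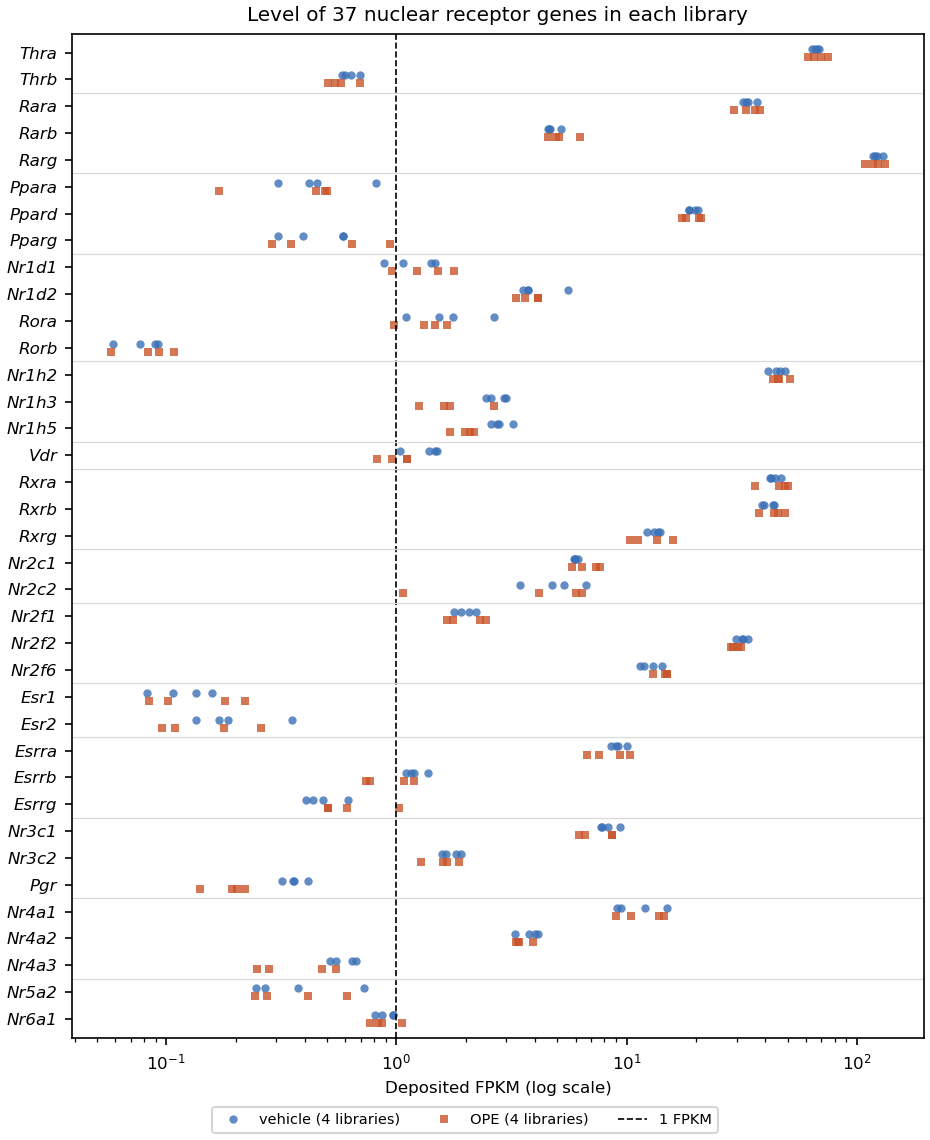
Deposited FPKM (log scale) of the 37 tested nuclear receptor genes, grouped by role between the grey lines; each circle is 1 of 4 vehicle libraries and each square 1 of 4 OPE libraries, and the dashed line marks 1 FPKM. Rarg lies highest, at 118 to 130.1 FPKM in vehicle libraries, and the square far to the left for Nr2c2 is OPE 3.

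Among the retinoic acid receptors, Rara stood at 33.9 ± 2.10 FPKM and Rarb at 4.75 ± 0.279 in vehicle, so that the ratio of Rarg to Rara within a library was 3.62 ± 0.0942 and that of Rarg to Rarb 25.9 ± 1.76. Rarb is itself a known target of retinoic acid, through a repeated element just before its start site. The RefSeq promoter of Rarb (GRCm38.p6, chr14:16575477-16575576, minus strand) is shown because it is the member promoter that holds this repeat; the capitals mark GTTCAC and its repeat after a spacer of 5 bases, from 52 to 36 bases before the start.
Rarb: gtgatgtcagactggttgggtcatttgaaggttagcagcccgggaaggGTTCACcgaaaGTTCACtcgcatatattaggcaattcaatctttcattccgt
The same repeat, searched on both strands in the 250 bases before each start, was in 2 of 32851 promoter windows (0.00609%), and in 1 of the 38 of 41 members that RefSeq symbols matched. Rarb CPM was 15.5, 13.9, 13.7 and 13.6 in vehicle and 19.1, 13.8, 16.6 and 14.9 in OPE libraries, with the highest value in OPE 1 and overlapping groups. The letters describe the window and say nothing of whether a receptor was bound there in these buds.

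The heterodimer partners of the family came next. Rxra stood at 43.8 ± 2.11 and Rxrb at 41.3 ± 2.55 FPKM, and their ratio ran from 0.968 to 1.12 over the 4 vehicle libraries, so neither was higher in every library. Rxrg, which in the body is more restricted to muscle and parts of the nervous system, was lower at 13.3 ± 0.768 FPKM. Thra, the thyroid hormone receptor that prevails in bone and heart, was at 68.8, 65.6, 66.8 and 63.8 FPKM in vehicle 1 to 4. Thrb, the form known from liver, pituitary and inner ear, was at 0.626 ± 0.0506 FPKM and under the criterion, and the ratio of Thra to Thrb was 106 ± 6.95.

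Among the receptors of sterols and of fatty acids, 1 member of each group stood well above the others. Nr1h2, the liver X receptor beta that senses oxysterols in most tissues, was at 41.3, 48.9, 46.5 and 44.6 FPKM in vehicle 1 to 4. Nr1h3, the liver X receptor alpha of liver, fat and macrophages, was at 2.73 ± 0.267 FPKM, which puts Nr1h2 16.7 ± 2.28 times higher per length. Nr1h5, a lanosterol receptor in mouse that is a pseudogene in human, was at 2.82 ± 0.270 FPKM. Ppard, the widely expressed fatty acid receptor, stood at 19.4 ± 0.796 FPKM. Its relatives Ppara, which drives fatty acid oxidation in liver, and Pparg, the master regulator of fat cells, were at 0.496 ± 0.220 and 0.469 ± 0.142 FPKM and did not meet the criterion. Fewer cells of a type and less RNA per cell cannot be told apart in these bulk samples.

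Among the orphan receptors Nr2f2, or COUP transcription factor II, a gene of mesenchyme and veins, was at 31.8 ± 1.67 FPKM, 16.1 ± 1.57 times the level of its close relative Nr2f1 (1.99 ± 0.191). Nr2f6, the more distant member of the COUP group, was at 12.6 ± 1.29 FPKM. The testicular receptors Nr2c1 and Nr2c2, best known as repressors of embryonic globin genes in red cell precursors, were at 5.99 ± 0.0965 and 5.04 ± 1.34 FPKM. All 5 of these genes met the criterion.

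The NR4A receptors are immediate early genes that growth factors and cyclic AMP switch on within minutes. Nr4a1 was at 14.9, 11.99, 9.10 and 9.40 FPKM in vehicle 1 to 4, Nr4a2 at 3.79 ± 0.368 and Nr4a3 at 0.592 ± 0.0725, the last under the criterion. The RefSeq promoters of Nr4a1 (GRCm38.p6, chr15:101266596-101266845, plus strand) and Nr4a3 (chr4:48045055-48045304, plus strand) are shown because both hold several copies of a cyclic AMP element; capitals mark TGCGTCA in the first and TGACGT in the second, and each line ends at the base before the start.
Nr4a1: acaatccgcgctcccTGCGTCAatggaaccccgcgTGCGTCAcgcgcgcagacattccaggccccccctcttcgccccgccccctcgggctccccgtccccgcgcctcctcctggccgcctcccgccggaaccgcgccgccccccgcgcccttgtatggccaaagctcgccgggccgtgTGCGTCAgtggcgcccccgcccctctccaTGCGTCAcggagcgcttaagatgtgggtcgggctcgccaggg
Nr4a3: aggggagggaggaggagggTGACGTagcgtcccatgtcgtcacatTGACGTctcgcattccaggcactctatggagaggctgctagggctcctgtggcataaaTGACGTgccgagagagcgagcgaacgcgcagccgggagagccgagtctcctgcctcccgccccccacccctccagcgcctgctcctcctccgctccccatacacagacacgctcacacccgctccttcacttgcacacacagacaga
Nr4a1 held 4 copies of TGCGTCA and was the only member with it, against 574 of 32851 windows (1.75%), with both strands searched. TGACGT was in 3 copies in Nr4a3 and was also found in Nr2c1, against 2125 windows (6.47%). The reverse complement of TGACGT shares the letters CGTCA with TGCGTCA, but neither contains the other. Nr4a1 CPM was 36.5, 29.1, 22.2 and 22.7 in vehicle and 36.2, 22.2, 27.9 and 34.0 in OPE libraries, with overlapping groups.

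Steroid hormone receptors were modest. Nr3c1, the glucocorticoid receptor, was at 8.32 ± 0.758 FPKM and Nr3c2, the mineralocorticoid receptor, at 1.74 ± 0.148. Pgr, the progesterone receptor, was at 0.361 ± 0.0396 FPKM, and the oestrogen receptor genes Esr1 and Esr2 were at 0.120 ± 0.0327 and 0.211 ± 0.0972, all 3 under the criterion. Of the oestrogen-related receptors, which bind no oestrogen, Esrra, a regulator of mitochondrial genes, was at 9.19 ± 0.654 FPKM, Esrrb at 1.204 ± 0.116 and Esrrg, known from heart and oxidative muscle, at 0.483 ± 0.0943, the last under the criterion.

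Of the 4 receptors of the circadian clock, 2 met the criterion. Nr1d2, or REV-ERB beta, was at 5.57, 3.56, 3.73 and 3.73 FPKM in vehicle 1 to 4 and Rora, its activating counterpart, at 1.76 ± 0.652. Nr1d1, or REV-ERB alpha, had a mean of 1.21 FPKM but dipped under 1 in at least 1 vehicle library (1.47, 0.880, 1.41 and 1.07), so it was not counted as expressed. Rorb, a gene of retina and brain, was at 0.0792 ± 0.0153 FPKM. Vdr, the vitamin D receptor, was at 1.35 ± 0.212 FPKM and met the criterion narrowly, with a lowest vehicle value of 1.04. Of the orphan receptors of gonads and germ cells, Nr5a2 was at 0.403 ± 0.222 and Nr6a1, which silences pluripotency genes in the early embryo, at 0.901 ± 0.0743 FPKM, both under the criterion.

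A further 4 members had too few reads for a test. The xenobiotic receptor Nr1i2 had 4 reads in all vehicle and 3 in all OPE libraries, a depth-adjusted ratio of 0.889 with an exact 95% interval of 0.130 to 5.25 that covers counting error only. Nr1i3, the other xenobiotic receptor, had 5 and 13 reads (3.08, 1.03 to 11.0), and on the mouse annotation 3304 of its 4414 exon bases also lie in exons of Tomm40l on the other strand, which had 929 reads. Nr2e3, a photoreceptor gene, had 18 and 10 reads (0.658, 0.271 to 1.504), and Nr5a1, the steroidogenic factor of gonad and adrenal, 8 and 9 (1.33, 0.456 to 3.97). At this depth none of these 4 allowed a statement about the exposure.

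Between OPE and vehicle buds no nuclear receptor passed the test. In an edgeR quasi-likelihood fit over 15517 genes, with Benjamini-Hochberg adjustment over all of them and a threshold of 0.05, 0 of 37 members passed, where 74 genes in all did (0.477%; 6 higher and 68 lower in OPE). At an unadjusted p under 0.05 there were 5 members (13.5%) beside 13.2% of all genes. The limma-voom test also called 0 members, DESeq2 called 1, Pgr, beside 3.45% of all genes, and the authors' deposited table has 0 of 38 members under an adjusted p of 0.05, beside 2.68% of its genes. With offsets that remove a trend with gene length from each library, 151 genes were higher and 171 lower, and still 0 members were called. Other scalings moved the split less: 86.4% of calls were lower with DESeq2 size factors, 89.3% with library totals and 92.5% with upper quartile. In the main fit 91.9% were lower.

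The summed level of the family differed by less than the spread between libraries: it was 502 ± 9.14 FPKM in vehicle and 503 ± 32.4 in OPE (mean ± SD, n = 4). Of the 37 members, 18 had a log2 fold change (OPE over vehicle) above 0 and 19 below. The members' median size of log2 fold change was 0.14, against 0.14 over all tested genes. Groups did not overlap for 3 members: every OPE library was below every vehicle library for Pgr and Nr1h5 (5.41% of members, beside 5.44% of all genes), and above for Nr2c1 (2.7%, beside 4.05%). These shares lie at or under the background.

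The intervals show what size of difference the data leave possible. For 19 of the 25 expressed members the 95% interval of the fold change lay within 1.5-fold in either direction, and for 23 within 2-fold. Among the 11 members at 10 FPKM or more, estimates ran from -0.04 to 0.25 on the log2 scale. Among the 12 tested members under the criterion, only 2 had intervals within 1.5-fold and 5 within 2-fold, so for the others a difference of 2-fold stays inside the interval. A p that misses the threshold does not show that a receptor's level was the same in both groups.

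**Figure D2:**
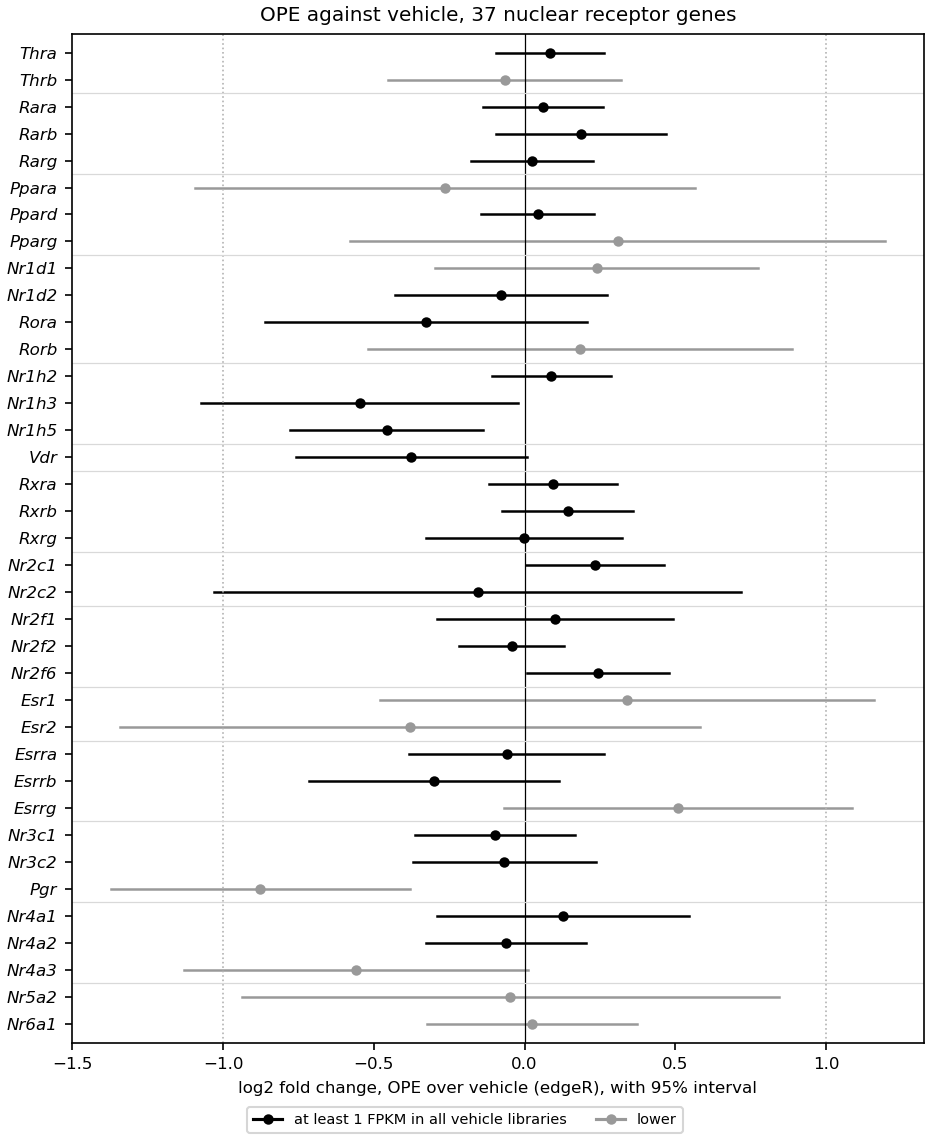
Log2 fold change of OPE over vehicle for the 37 tested nuclear receptor genes (points) with 95% intervals (lines), edgeR on 4 libraries per group; black marks the 25 members with at least 1 FPKM in all vehicle libraries, grey the 12 lower ones, and dotted lines mark a 2-fold difference. The lowest estimate is Pgr at -0.88 and the highest Esrrg at 0.51, and the widest intervals belong to genes of low level and to Nr2c2.

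The 12 members of smallest p are described next. Pgr (chromosome 9, 8899833 to 8968611, plus strand, mm10) had CPM of 2.82, 2.14, 2.44 and 2.40 in vehicle and 1.52, 1.32, 1.04 and 1.40 in OPE libraries. All 4 OPE values lay below all 4 vehicle values, at a level of only 198 reads in the 4 vehicle libraries together. The log2 fold change was -0.88 ± 0.23 (SE; 95% interval -1.37 to -0.38; edgeR adjusted p = 0.118), and the authors' deposited table gives an adjusted p of 0.0571. Over the alternatives the edgeR, limma or DESeq2 adjusted p of Pgr ran from 0.0434 to 0.308.

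Nr1h5 (chromosome 3, 102939658 to 102964133, minus strand) had CPM of 7.22, 7.75, 7.63 and 8.88 in vehicle and 4.89, 5.62, 6.38 and 6.13 in OPE libraries. Here too the groups did not overlap, with OPE 1 lowest and vehicle 4 highest. The log2 fold change was -0.46 ± 0.15 (adjusted p = 0.201).

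Nr1h3 (chromosome 2, 91184061 to 91202834, minus strand) had CPM of 5.08, 4.74, 5.71 and 5.81 in vehicle and 2.49, 3.37, 5.69 and 3.20 in OPE libraries. OPE 1, 2 and 4 lay below every vehicle library, and OPE 3 lay inside the vehicle range. The log2 fold change was -0.55 ± 0.24 (adjusted p = 0.361), and without OPE 3 Nr1h3 was the 1 member that passed, beside 1.95% of all genes (adjusted p = 0.0424). Macrophages are known to express Nr1h3, and macrophage markers were lower in OPE. Of 18 tested markers 18 had a log2 fold change under 0, beside 47.2% of all genes, and 8 passed the test, beside 0.477%. The markers' summed CPM ran from 256 to 288 in vehicle and from 53.9 to 132 in OPE libraries. The summed marker level in OPE 3, 127 CPM, was below every vehicle library while its Nr1h3 was not; Cd163 of that list was at 0 in 3 vehicle libraries. The part of macrophages in the Nr1h3 values was not tested.

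Nr2f6 (chromosome 8, 71374123 to 71381960, minus strand) had CPM of 25.1, 28.2, 25.9 and 31.0 in vehicle and 32.8, 33.2, 35.7 and 28.9 in OPE libraries. OPE 4 lay within the vehicle range, and the log2 fold change was 0.25 ± 0.11 (adjusted p = 0.361). Its exons share 1622 of 2983 bases with Ocel1 on the other strand, which had 11.3 CPM in vehicle. Nr2c1 (chromosome 10, 94148023 to 94197211, plus strand) had CPM of 21.8, 21.8, 22.5 and 21.8 in vehicle and 28.8, 23.8, 23.2 and 27.4 in OPE libraries. Every OPE library was above every vehicle library, which lay close together, and the log2 fold change was 0.23 ± 0.10 (adjusted p = 0.370).

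**Figure D3:**
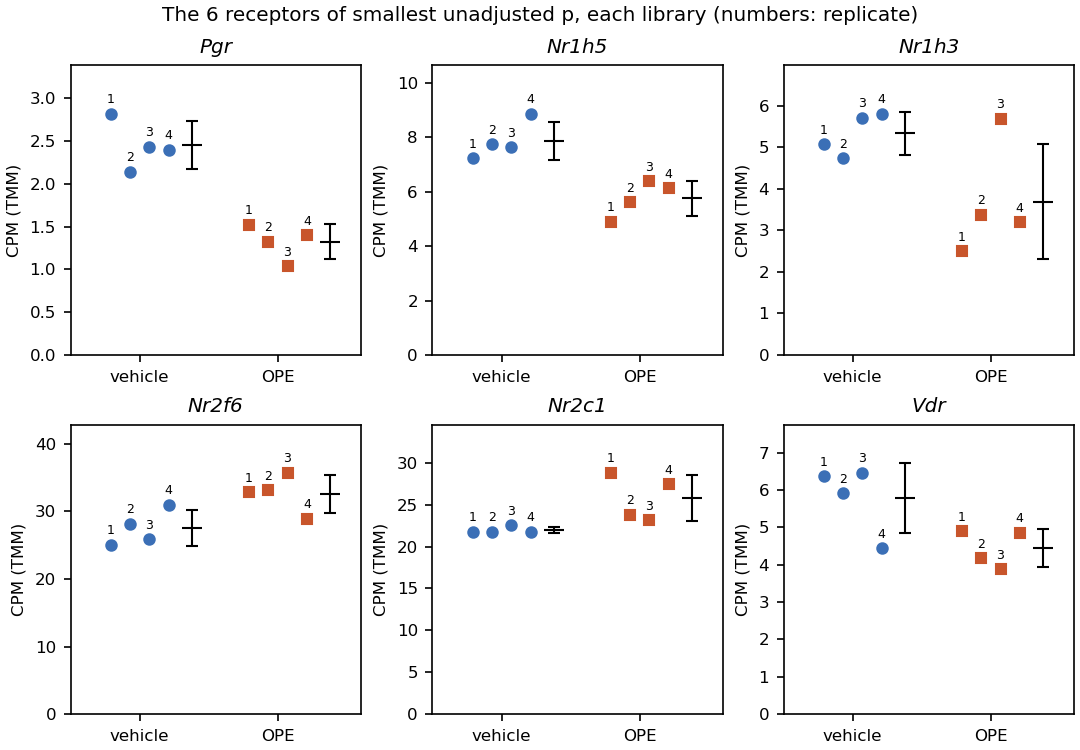
CPM of the 6 nuclear receptor genes of smallest unadjusted p in each library (numbers give the replicate), with the mean and SD of 4 libraries beside each group. The groups do not overlap for Pgr, Nr1h5 and Nr2c1; OPE 3 of Nr1h3 and OPE 4 of Nr2f6 lie in the vehicle range, and none of the 6 passed the test.

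The remaining 7 of the 12 had overlapping groups. Vdr had CPM of 6.38, 5.91, 6.46 and 4.44 in vehicle and 4.89, 4.17, 3.88 and 4.86 in OPE, with vehicle 4 among the OPE values and a log2 fold change of -0.38 ± 0.17 (adjusted p = 0.391). Nr4a3 had -0.56 ± 0.26 (0.391), with CPM of 3.78, 3.06, 3.61 and 2.89 in vehicle and 2.72, 1.59, 1.53 and 3.13 in OPE, so that only OPE 4 lay in the vehicle range. Esrrg had 0.51 ± 0.26 (0.443), with CPM of 2.14, 2.29, 2.53 and 3.24 in vehicle and 5.54, 2.71, 2.91 and 3.26 in OPE. Esrrb, a pluripotency and placental gene, had -0.30 ± 0.19 (0.546), and Rora -0.33 ± 0.24 (0.622). Rxrb had 0.14 ± 0.10 (0.592) and Rarb 0.19 ± 0.13 (0.592).

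The most abundant receptor of each role, where not already given, had a fold change within its error of 0 or close to it. The log2 fold change was 0.02 ± 0.09 for Rarg, 0.09 ± 0.10 for Rxra, 0.08 ± 0.08 for Thra and 0.09 ± 0.09 for Nr1h2. It was -0.04 ± 0.08 for Nr2f2 and 0.04 ± 0.09 for Ppard. Nr4a1, Esrra and Nr3c1 had 0.13 ± 0.19, -0.06 ± 0.15 and -0.10 ± 0.12, and Nr1d2 had -0.08 ± 0.16. Of the low groups, Nr6a1 had 0.02 ± 0.16 and Esr2 -0.38 ± 0.44. The adjusted p of these 12 ran from 0.739 to 0.972 by edgeR. The other 13 tested members, Thrb, Rara, Ppara, Pparg, Nr1d1, Rorb, Rxrg, Nr2c2, Nr2f1, Esr1, Nr3c2, Nr4a2 and Nr5a2, ran from -0.26 (Ppara) to 0.34 (Esr1).

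The share of a role in the family's level differed between groups by less than 1 SD of the vehicle libraries for 12 of 15 roles and by more for 3. The retinoic acid receptors held 32.1% ± 0.902 of the summed FPKM in vehicle and 31.7% ± 0.885 in OPE, and the retinoid X receptors 19.6% ± 0.933 and 20.3% ± 0.323 (mean ± SD, n = 4 libraries, as for all shares and ratios here). The thyroid hormone receptors held 13.3% ± 0.508 and 13.6% ± 0.510, and the COUP group 9.24% ± 0.383 and 9.22% ± 0.375. The 3 roles beyond 1 SD were small ones, all lower in OPE and not tested as shares: the oestrogen-related receptors at 2.17% ± 0.128 and 2.01% ± 0.238, the corticoid and progesterone receptors at 2.07% ± 0.173 and 1.85% ± 0.300, and the vitamin D and xenobiotic receptors at 0.276% ± 0.0423 and 0.215% ± 0.0305. The ratio of Rarg to Rara was 3.62 ± 0.0942 in vehicle and 3.54 ± 0.361 in OPE, and that of Thra to Thrb 106 ± 6.95 and 119.9 ± 24.4. The ratio of Nr1h2 to Nr1h3 was 16.7 ± 2.28 in vehicle and 27.7 ± 8.06 in OPE, where it ran from 17.2 in the lowest library, inside the vehicle range, to 36.6. The ratio of Nr2c1 to Nr2c2 was 1.26 ± 0.357 and 2.34 ± 2.04, with a highest OPE value of 5.39 that belongs to the low Nr2c2 of OPE 3.

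Libraries of a group varied more for the lower members. Among the 25 expressed members the coefficient of variation of vehicle CPM had a median of 8.98%, from 1.69% for Nr2c1 to 37.6% for Rora. Among the 12 lower members the median was 21.7%. The median standard error of the log2 fold change was 0.13 for the expressed and 0.29 for the lower members.

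Known targets of the receptors and other genes of their pathways were read from 13 lists. The coregulator, chaperone and immediate early lists are not lists of receptor targets. The retinoic acid and thyroid hormone lists also hold supply or transport genes. Some lists count tested members themselves: Nr1h3 (liver X receptor), Rarb (retinoic acid), Thra and Thrb (thyroid hormone), Pgr (oestrogen) and the NR4A genes (immediate early). Of 14 tested targets of the liver X receptors, 2 fell and 12 did not pass, beside 0.477% of all genes that passed. The list's median log2 fold change was -0.12 (all genes 0.01). By edgeR 6 had an unadjusted p under 0.05, Nr1h3 itself among them, beside 13.2% of all genes. Abcg1, a cholesterol exporter, was at 24.4, 26.6, 24.5 and 21.6 CPM in vehicle and 5.49, 8.07, 6.80 and 10.5 in OPE libraries, without overlap. Its log2 fold change was -1.66 ± 0.18 (adjusted p = 0.00530), and it passed in all 19 alternatives that refit or rescale the data. Apoc1, a small apolipoprotein, fell by 2.22 ± 0.41 from a level of 1.22 CPM (adjusted p = 0.0452), a call that was lost without any 1 of 6 libraries (vehicle 1 to 4, OPE 1 or OPE 2). Abca1, another cholesterol exporter, had -0.68 ± 0.13 (adjusted p = 0.0544) and passed in 7 of the 19 alternatives, 1 of them the fit without OPE 3. Its groups did not overlap, at 161, 111, 129 and 122 against 92.5, 71.4, 72.4 and 90.5 CPM.

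Of 16 tested PPAR targets, 2 fell and 14 did not pass, beside 0.477% of all genes that passed. By edgeR 8 had an unadjusted p under 0.05, beside 13.2% of all genes, and the list's median was -0.27. Lpl, lipoprotein lipase, was at 34.4, 35.5, 38.2 and 34.8 CPM in vehicle and 16.8, 17.2, 16.3 and 17.9 in OPE libraries, a log2 fold change of -1.07 ± 0.09 (adjusted p = 0.00235) that passed in all 19 alternatives. Cd36, a fatty acid transporter and scavenger receptor, had -1.01 ± 0.19 (adjusted p = 0.0484) and lost the call without any 1 of the same 6 libraries. Txnip, a thioredoxin-binding protein that is also regulated by glucose, had -1.10 ± 0.21 (adjusted p = 0.0522). It passed in 5 of the 19 alternatives, none of which left out a single library. Macrophages are known to express Abcg1, Abca1, Lpl, Cd36 and Apoc1, and the macrophage markers given above were lower in the same 4 libraries. Endothelial cells are known to express Cd36. Of 16 tested endothelial markers 13 had a log2 fold change under 0, beside 47.2% of all genes, and 2 fell (median -0.40). Their summed CPM ran from 472 to 526 in vehicle and from 289.7 to 421 in OPE libraries, again without overlap. The part of either cell type in these values was not tested. The groups overlapped for the receptors of these pathways: Nr1h2 was at 81.7 to 95.7 CPM in vehicle and 86.1 to 102 in OPE libraries, and Ppard at 59.5 to 64.0 and 58.1 to 67.7.

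**Figure D4:**
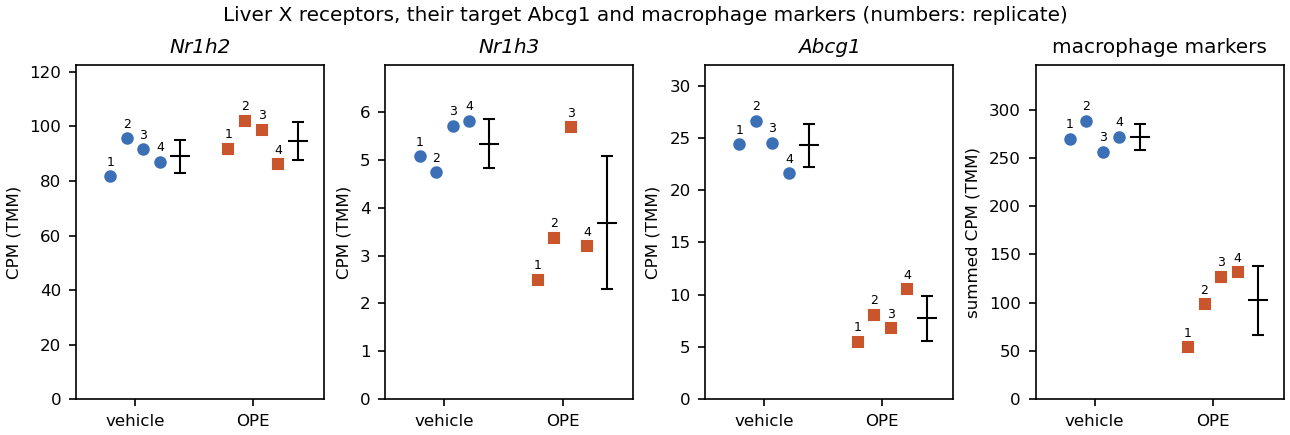
CPM of the liver X receptor genes Nr1h2 and Nr1h3, of the target gene Abcg1, and the summed CPM of 19 macrophage markers with a row, in each library (numbers give the replicate), with the mean and SD of 4 libraries beside each group. Nr1h2 overlaps between groups, Nr1h3 is low in OPE 1, 2 and 4 only, and Abcg1 and the marker sum are below the vehicle range in all 4 OPE libraries.

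In the list of retinoic acid supply and response 0 of 15 tested genes passed, with a median of -0.21 and 5 at an unadjusted p under 0.05 by edgeR, a level that 13.2% of all genes reached. Stra6, a receptor for vitamin A uptake, was at 24.0, 23.2, 21.4 and 25.8 CPM in vehicle and 14.7, 19.9, 13.5 and 16.6 in OPE libraries (-0.55 ± 0.14, adjusted p = 0.103). Its groups did not overlap. Aldh1a2, the enzyme that makes retinoic acid in the embryo, was at 27.1, 32.6, 32.9 and 35.5 in vehicle and 75.8, 52.9, 45.6 and 36.9 in OPE, highest in OPE 1 and also without overlap (0.72 ± 0.19, adjusted p = 0.128). Dhrs3, which turns retinal back into retinol, had -0.41 ± 0.12 (adjusted p = 0.158) and passed without OPE 3, while OPE 3 itself, at 50.9 CPM, lay within the vehicle range. None of these 3 passed in the main edgeR fit on all 8 libraries. Over the 19 alternatives Stra6 and Aldh1a2 each passed in 1. Dhrs3 passed in 3, of which 1 was the fit without OPE 3.

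No gene passed in the other lists in the main edgeR fit, where 0.477% of all genes did. An unadjusted p under 0.05 was reached by 13.2% of all genes, the share to set beside the counts below. Of 27 coregulators the median was 0.01, with 1 at an unadjusted p under 0.05, Ncoa5 (-0.20 ± 0.08, adjusted p = 0.350), and of 12 steroid receptor chaperones the median was 0.02, with none at that p. Of 9 thyroid hormone response genes the median was -0.02 with 1 at that p, and the transporter gene Slc16a10 had 0.25 ± 0.10 (adjusted p = 0.330). Of 15 clock targets the median was 0.01 with 2 at that p, and the smallest p was that of Dbp (0.33 ± 0.12, adjusted p = 0.279). Of 13 glucocorticoid targets the median was -0.01 with 2 at that p, namely Sgk1, a kinase, at 0.30 ± 0.10 (0.223) and Tsc22d3, or GILZ, at 0.30 ± 0.12 (0.320). Of 7 vitamin D response genes the median was 0.01 with 2 at that p. Among them Spp1, osteopontin, was at -0.80 ± 0.21 (0.131) and passed in 1 of the 19 alternatives. Of 7 oestrogen response genes the median was 0.04, and 3 had an unadjusted p under 0.05. Of these, Pgr and the growth regulator Greb1 were lower in OPE (Greb1 -0.50 ± 0.20, 0.323). Hsd17b1 was higher, at 1.35 ± 0.46 (0.225), from a vehicle level of 0.461 CPM. Of 18 immediate early genes, which include the NR4A members, the median was 0.01 and none had an unadjusted p under 0.05. The xenobiotic list had 1 tested gene, Abcb1b, at -0.14 ± 0.27 (0.891), and none of the 7 bile acid receptor targets had enough reads.

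Deviations of the libraries were related to gene length to different degrees, in vehicle libraries too. Over all tested genes, the slope of log2 deviation from the mean of all libraries was -0.21 per doubling of gene length in OPE 3, against -0.03 to 0.10 in the 7 other libraries. Across the 37 members, Spearman's rho between gene length and deviation from the vehicle mean was 0.56, -0.21, -0.08 and -0.32 in vehicle 1 to 4 and 0.06, -0.31, -0.49 and 0.10 in OPE 1 to 4, a description of genes that share a library and its depth. Among the members the size was thus greatest in vehicle 1, with OPE 3 next and of opposite sign. Over all tested genes it was greatest in OPE 3, at -0.49, against 0.41 in vehicle 1 and -0.40 in vehicle 2. Of the 11 members longer than 5000 bases, 7 were below the vehicle mean in OPE 3 and 4 above it, among them Rorb at 0.19 and Esrrg at 0.20 (log2).

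The deviation of Nr2c2 (chromosome 6, 92091390 to 92173057, plus strand) in OPE 3, -2.05 on the log2 scale, was the lowest of any tested member in any of the 8 libraries. Its CPM was 50.5, 25.8, 35.6 and 39.99 in vehicle and 49.3, 31.6, 8.81 and 46.0 in OPE libraries. OPE 3 was below every other library and the remaining OPE values lay in the vehicle range, with a log2 fold change of -0.16 ± 0.40. Nr2c2 shares 4590 exon bases with Mrps25 on the other strand, which was at 27.4, 34.6, 31.8 and 34.7 CPM in vehicle and 22.6, 30.4, 35.3 and 23.6 in OPE libraries and was not low in OPE 3.

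**Figure D5:**
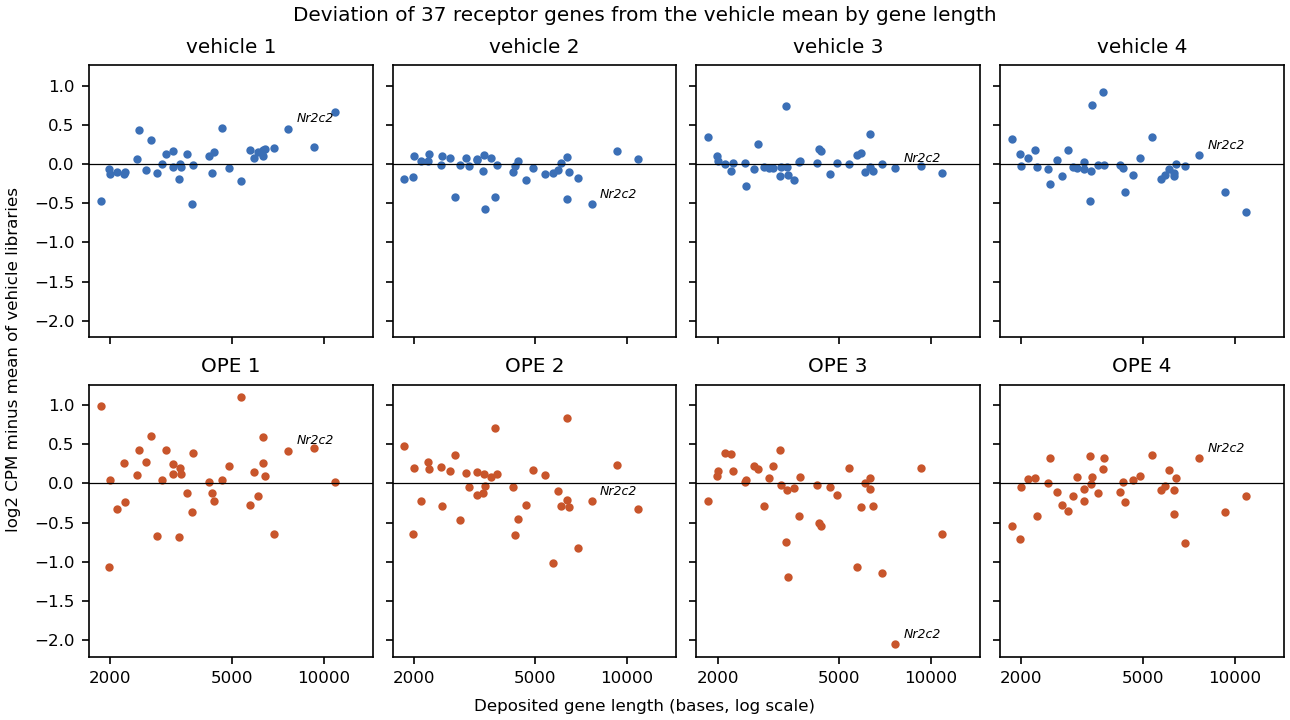
Log2 CPM of the 37 tested receptor genes minus their mean over the vehicle libraries, against the deposited gene length in bases (log scale), in each of the 4 vehicle libraries (top) and 4 OPE libraries (bottom); each point is 1 gene, and Nr2c2 is named. Nr2c2 lies lowest in OPE 3, at -2.05, where long genes lie on both sides of 0.

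On the GRCm38 annotation of GENCODE release M21, 11 members, 8 of them expressed, share exon bases with another gene of the table. The gene span there was identical to the deposited one for 31 of 41 members. The bases shared in the annotation used for counting may therefore differ. Thra and Nr1d1 share 263 bases at their ends on opposite strands, and Thra had 24183 reads over all libraries where Nr1d1 had 519. Esrra shares 73 bases with Trmt112, and Nr2f1, Nr2f2 and Nr3c2 share up to 643 bases with genes on the other strand. None of the sources used here states whether the counting used strand, so reads of such pairs cannot be told apart, and the values of Nr1d1, Nr2c2, Nr2f6 and Nr1i3 are uncertain to that extent.

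Total counts per library ran from 14986793 to 22006738. The first principal component of log2 CPM set OPE 3 apart from the other libraries. The second separated the groups, at 12.8 to 23.2 in vehicle libraries and -43.9 (OPE 1) to 2.77 (OPE 3) in OPE libraries. Among the marker lists of other cell types, 2 of 16 endothelial genes (Aplnr and Flt1), as given above, and 1 of 3 hepatocyte and gut genes (Apoa1) fell. None passed of 12 epidermis, 12 skeletal muscle, 7 neural crest and Schwann, 7 erythroid and 4 brain and retina genes. Of all genes 0.477% passed. Counts depend on single libraries: without 1 vehicle library 7 to 19 genes passed, and without 1 OPE library 12 to 308.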

How the data were processed

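The 8 libraries were made from poly-A RNA captured on beads, per the labels' protocols. Software listed by the submitters' processing notes, with no role stated, comprised DESeq2 (given as version 2), HTSeq 0.6.1, STAR 2.5 and CASAVA 1.8, and the build was mm10. Per the file headers, the authors deposited 1 table with raw read counts per gene, a signal column of counts divided by a size factor, FPKM values, and the authors' log2 fold change, p-value and adjusted p-value, the last missing for 3933 genes. Recomputed from the counts, FPKM was scaled by deposited gene length and library total.

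The counts were fitted in R 4.3.3 with edgeR 4.0.16 (TMM scaling, filterByExpr, robust quasi-likelihood fit, group as the only term) over all 21692 genes, of which 15517 passed the filter, and p-values were adjusted over all of them. CPM values use TMM-scaled totals, and logs a prior count of 2. Where 20 symbols had repeated rows, the row with most reads was used. The fit was tested on simulated counts. Alternatives were other scalings and filters, limma 3.58.1, DESeq2 1.42.0, a replicate block and leaving out libraries. Replicate pairs differed by at least 4.80 times the sampling noise (chi-square per degree of freedom). Pairs with OPE 3 were at 39.8 to 69.8 on this measure, and all other pairs were at 17.4 or less. Promoter windows (250 bases before each start) and their letters are from RefSeq, GRCm38.p6.

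The members and the 22 gene lists, 13 of pathways and 9 of cell type markers, were chosen with earlier results of these data known. Every member is named with its level, and fold changes are given for the 12 of smallest p and the most abundant of each role; of each list at most the 3 genes of smallest p are named. Protein sequences were not used here.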

Additional observations from a re-analysis of the deposited data

Results flagged for a closer look

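Within each group of 4 libraries, the highest or lowest CPM of every tested receptor was compared with the others by the gap to its nearest neighbour over the group's range. Of 74 groups examined 3 were flagged, which is no more than the about 1 in 20 that chance alone gives. Rarb was at 15.5 CPM in vehicle 1, against 13.6 to 13.9 in the other vehicle libraries. Nr1d2 was at 25.7 CPM in vehicle 1, against 16.3 to 17.1. Nr2c1 was at 22.5 CPM in vehicle 3, against 21.77 to 21.79, a gap that is small beside its level. No cause was tested for any of them.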

How the results depend on the processing

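Over 19 alternative fits and scalings, 700 fold changes of members were recomputed. Of these 39 changed sign, in 16 members of which none had passed, the largest with a log2 fold change of 0.38 in size. The count of members past the threshold was 0 except with DESeq2 (1, Pgr) and without OPE 3 (1, Nr1h3), so leaving out 1 library gave 0 to 1. The count of all genes, 74, became 131 with library totals, 136 with no filter on low counts, 322 with gene-length offsets (151 higher, 171 lower), 536 with DESeq2 (178 higher, 358 lower), 7 at an adjusted p of 0.01 and 243 at 0.1. Leaving out 1 library gave 7 to 308 genes, and leaving out both OPE 1 and OPE 3 gave 85. The cause of these shifts was not tested. With replicate number as a block (replicate block) 62 genes and 0 members passed; deviations of same-numbered libraries correlated at 0.309, 0.0818, 0.0126 and 0.0918 for numbers 1 to 4, and not every one was over 0.1, so the numbers were not used as pairs; the labels do not say whether a number marks a shared litter or culture.

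The number of expressed members, 25, was 29 at a minimum of 0.5 FPKM, 20 at 2 FPKM, 32 at 1 CPM, 26 by the vehicle mean, 22 over all 8 libraries and 25 to 26 without 1 vehicle library. Precision is lowest for the 12 tested members under the criterion, 7 of whose intervals reach beyond 2-fold, and for the 4 with too few reads; depth and spread between libraries were not separated there.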
